A study of Equus caballus with 33 samples.

Results

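The proteasome genes of equine articular cartilage were followed through 27 days of culture with or without interleukin-1β (IL-1β), a cytokine of inflamed joints. Members were taken by gene symbol, as every symbol that starts with PSMA to PSMG followed by a digit and that is carried by a probe set annotated to 1 gene. This rule gave 47 symbols of the 16661 on the array, each represented by its probe set with the highest mean signal. PSMC3IP and PSME3IP1 match the pattern but name no proteasome subunit, which left 45 genes. They comprised 5 inducible members, 13 genes of the core particle, 16 of the regulatory cap, 4 chaperones of core assembly, 3 chaperones of cap assembly, 2 other regulators (PSME4 and PSMF1) and 2 tissue-restricted core genes (PSMA8 and PSMB11). PSMB2, PSMD4 and PSME3 were found only on probe sets with several symbols and were not analysed here.

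The data were Affymetrix microarray values of 33 arrays in 11 groups of 3. Explants came postmortem from the distal metacarpus of 3 horses whose joints showed no disease, and were held in medium for 48 h. Stimulated explants then received recombinant equine IL-1β at 10 ng/mL and were harvested after 3 days and then every 6 days to day 27 (15 arrays). Unstimulated explants had medium without IL-1β at the same days and also at day 0 (18 arrays). All explants were digested with trypsin and collagenase before lysis, a step that stimulated and unstimulated groups share. Replicate numbers 1 to 3 were read as the 3 horses, which is inferred and not stated in the labels, so the p-values measure the spread between these arrays. Values are log2 signals as deposited, with array medians of 5.16 to 5.38. The submitters' notes name RMA, a method that includes quantile normalization. A level is therefore relative to the rest of the array, levels of different genes are not compared, and in whole tissue fewer cells of a type and less RNA per cell cannot be told apart.

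The proteasome degrades proteins tagged with ubiquitin. Its core particle is a barrel of alpha and beta rings, with the alpha ring gating access and 3 of the beta subunits, PSMB5, PSMB6 and PSMB7, cutting peptides. The regulatory cap recognises, unfolds and feeds in the substrate through a ring of ATPases (PSMC genes) and a lid (most PSMD genes). Under interferon-γ and other inflammatory signals, cells make the immunoproteasome, in which PSMB8, PSMB9 and PSMB10 take the places of PSMB5, PSMB6 and PSMB7. PSME1 and PSME2 encode PA28, a separate activator that binds the end of the barrel. Immunoproteasomes are best known for producing peptides for MHC class I. The proteasome also removes IκB, the inhibitor of NF-κB, a step in the signalling of IL-1β in chondrocytes and other cells.

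Stimulated explants had higher levels of most core and cap genes and of most inducible members. In the mean of the 5 daily differences, stimulated minus unstimulated, 30 of the 45 genes were higher, 4 were lower and 11 did not pass (limma, Benjamini-Hochberg adjusted p under 0.05 over all probe sets). Over the whole array, 15.6% of probe sets were higher and 15.3% were lower in the same contrast. The median difference was 0.29 log2 over the 45 genes and -0.04 over all probe sets. Bright probe sets were called more often: among those above the median signal, fitted alone, 29.9% were higher and 22.9% lower, against 31 higher and 4 lower of the 42 proteasome genes in that range. Without replicate 2 the 30 higher genes became 20, and without replicate 3 they became 21. These fits have 2 arrays a group, and the share of all probe sets called in them is not given. By class, 12 of 13 core genes, 13 of 16 cap genes and 4 of 5 inducible members were higher, with median differences of 0.50, 0.32 and 0.46.

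**Figure D1:**
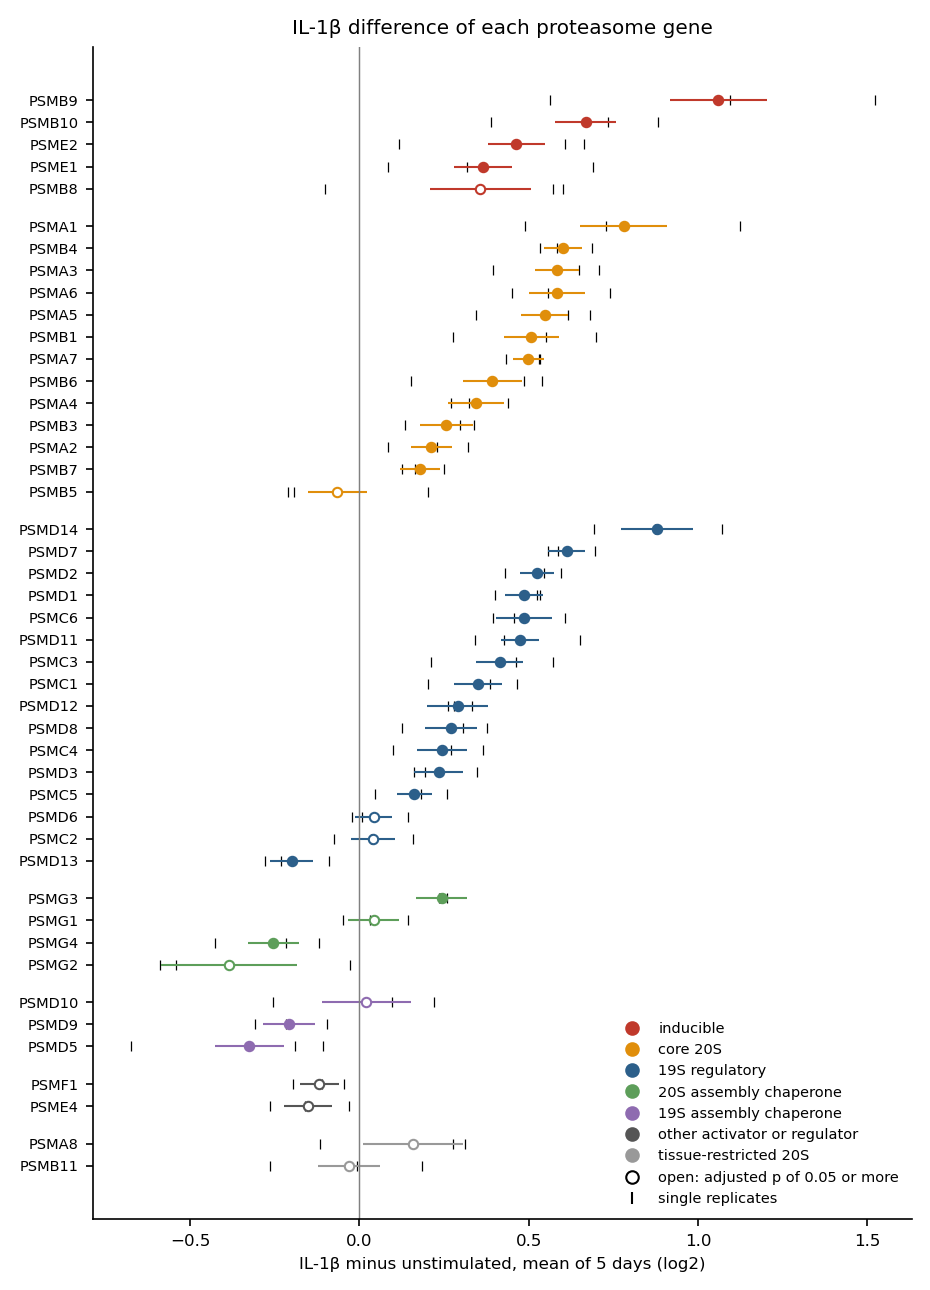
Stimulated minus unstimulated difference of each of the 45 proteasome genes (x axis, log2, mean of 5 days), grouped by class. Circles with bars are the fitted difference ± SE, filled where the adjusted p was under 0.05, and black ticks are the means of single replicate numbers. Core and cap genes lie mostly right of 0, with PSMB9 highest at 1.06 and PSMG2, not past the threshold, lowest at -0.39.

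Among the inducible catalytic subunits, PSMB9 and PSMB10 were higher in stimulated explants and PSMB8 did not pass the threshold. PSMB9, the inducible counterpart of PSMB6, measured 6.91, 6.89 and 7.81 (replicates 1, 2 and 3) in stimulated explants at day 3, 7.76, 8.69 and 8.28 at day 9, 8.31, 8.61 and 9.55 at day 15, 7.99, 8.21 and 9.08 at day 21, and 7.68, 8.34 and 8.93 at day 27. Unstimulated explants had 6.65, 6.61 and 6.77 at day 0, 6.77, 6.44 and 7.11 at day 3, 7.03, 6.69 and 7.23 at day 9, 7.21, 7.25 and 7.34 at day 15, 7.50, 7.52 and 7.15 at day 21, and 7.31, 7.37 and 7.22 at day 27. All stimulated arrays lay above all unstimulated arrays at days 9, 15, 21 and 27, and the groups overlapped at day 3. The share of all probe sets whose groups were apart at a given day is not given here, for PSMB9 or the genes below. The average difference of PSMB9 was 1.06 ± 0.14 log2 (SE, adjusted p = 1.08e-06), a 2.09-fold difference, and it was above 0 in 15 of 15 pairs matched by day and replicate number. Its daily difference was 0.43 at day 3 (adjusted p = 0.731) and 1.26, 1.56, 1.04 and 1.02 on the 4 later days (adjusted p = 0.0119, 0.00123, 0.0313 and 0.0301).

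PSMB10, which replaces PSMB7, measured 7.41, 7.06 and 7.19 in stimulated explants at day 3, 8.12, 7.96 and 7.61 at day 9, 7.83, 8.30 and 8.32 at day 15, 7.76, 7.92 and 8.23 at day 21, and 7.33, 8.27 and 8.10 at day 27. In unstimulated explants it stood at 7.18, 7.18 and 7.35 at day 0, 7.23, 7.02 and 6.91 at day 3, 7.24, 7.17 and 7.17 at day 9, 7.09, 7.21 and 7.06 at day 15, 7.55, 7.35 and 7.09 at day 21, and 7.39, 7.08 and 6.81 at day 27. Stimulated arrays were above unstimulated ones at days 9, 15 and 21, while at days 3 and 27 the groups overlapped, at day 27 through replicate 1. The average difference was 0.67 ± 0.09 (SE, adjusted p = 1.01e-06), with 14 of 15 pairs above 0 and the largest daily value, 1.03, at day 15 (adjusted p = 0.000714).

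PSMB8, the counterpart of PSMB5, measured 5.54, 5.54 and 6.05 in stimulated explants at day 3, 6.02, 6.88 and 5.84 at day 9, 6.40, 7.40 and 6.25 at day 15, 6.24, 7.19 and 6.60 at day 21, and 6.01, 7.33 and 6.75 at day 27. In unstimulated explants its levels were 5.42, 5.54 and 4.93 at day 0, 5.64, 6.0 and 5.75 at day 3, 5.96, 6.27 and 5.48 at day 9, 6.12, 6.15 and 5.65 at day 15, 6.57, 6.38 and 5.85 at day 21, and 6.43, 6.53 and 5.90 at day 27. The groups were apart only at day 15. Its average difference was 0.36 ± 0.15 (SE, adjusted p = 0.0731), and it was -0.10 in replicate 1 against 0.60 and 0.57 in replicates 2 and 3. With the replicate number as a block the adjusted p was 0.0184, and without replicate 1 the difference was 0.59 (adjusted p = 0.0387). PSMB8 also passed in limma with a random block, among probe sets above the median signal, and with arrays centred on their medians (adjusted p = 0.0401, 0.0476 and 0.0492). In the remaining alternative fits it did not pass.

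The 2 PA28 genes were higher in stimulated explants. PSME1 averaged 10.32 ± 0.09, 10.57 ± 0.24, 10.71 ± 0.03, 10.69 ± 0.10 and 10.50 ± 0.30 in stimulated explants on the 5 days in order, and 10.05 ± 0.30, 10.12 ± 0.25, 10.22 ± 0.34, 10.43 ± 0.24 and 10.15 ± 0.28 in unstimulated explants on the same days, with 9.80 ± 0.18 at day 0 (SD, n = 3 each). PSME2 averaged 8.80 ± 0.20, 9.36 ± 0.12, 9.61 ± 0.17, 9.64 ± 0.21 and 9.28 ± 0.48 in stimulated explants, and 8.58 ± 0.12, 8.90 ± 0.28, 8.92 ± 0.27, 9.14 ± 0.14 and 8.84 ± 0.11 in unstimulated explants, with 8.47 ± 0.10 at day 0 (SD, n = 3 each). The groups were apart at day 15 for PSME1 and at days 9, 15 and 21 for PSME2, again without a share of all probe sets beside it. The average differences were 0.36 ± 0.09 for PSME1 (SE, adjusted p = 0.00147) and 0.46 ± 0.08 for PSME2 (SE, adjusted p = 7.49e-05). Without replicate 3, PSME1 stood at 0.20 and did not pass.

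**Figure D2:**
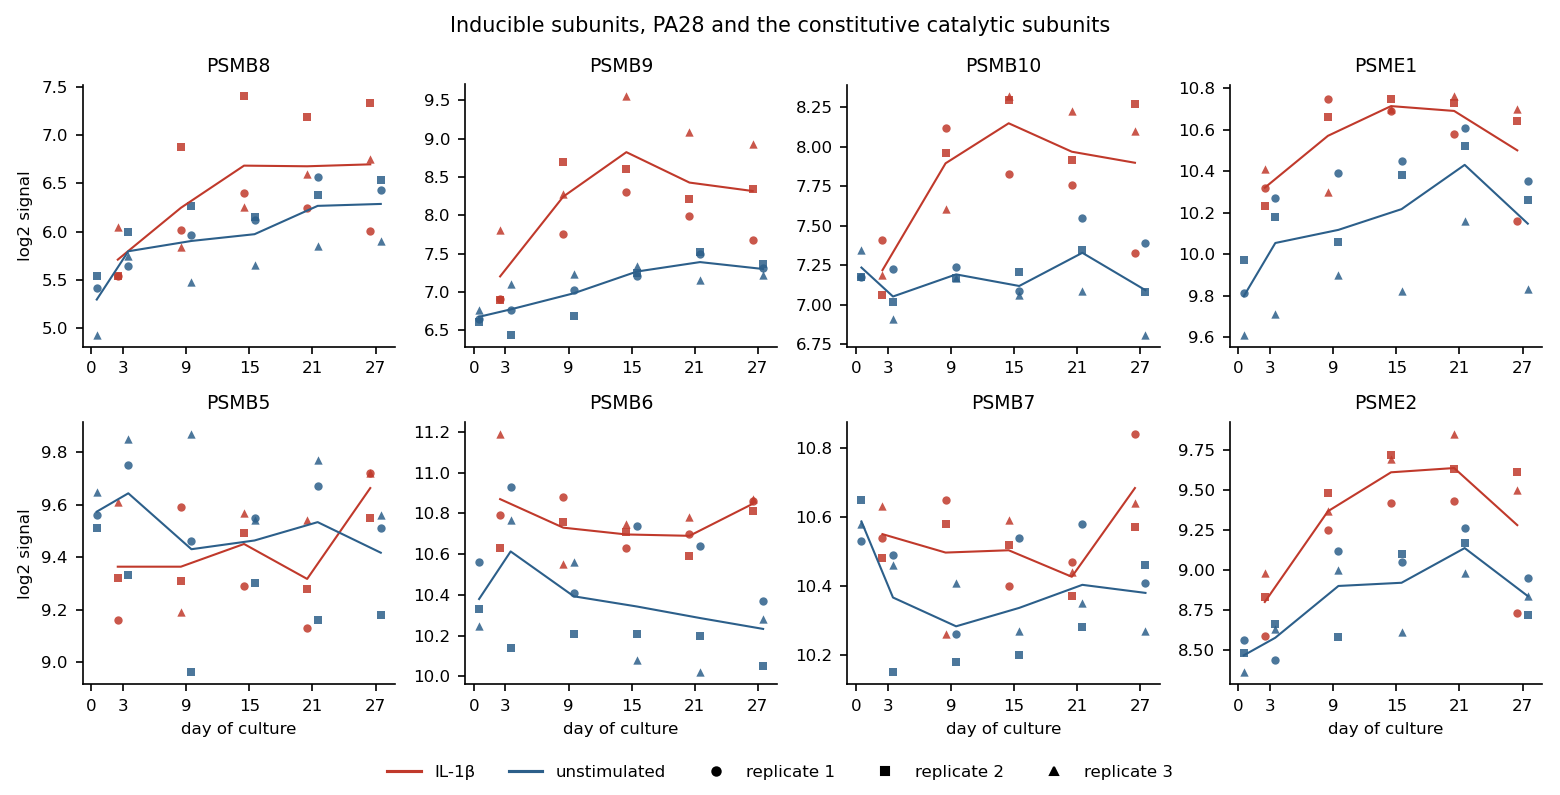
Levels (y axis, log2 signal) of the inducible subunits, PA28 and the constitutive catalytic subunits against day of culture (x axis), with 1 point per array, marker shape for the replicate number and lines through the means of stimulated (red) and unstimulated (blue) explants, offset sideways for clarity. The PSMB9 and PSMB10 lines separate from day 9 on, whereas the PSMB5 points of both groups overlap at every day. The y axes do not start at 0 and differ between panels.

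The constitutive catalytic subunits differed among themselves. PSMB5, the chymotrypsin-like subunit, was the single core gene that did not pass in the average over days, at -0.07 ± 0.09 (SE, adjusted p = 0.616), and its groups overlapped at 5 of 5 days. It averaged 9.36 ± 0.23, 9.36 ± 0.20, 9.45 ± 0.15, 9.32 ± 0.21 and 9.66 ± 0.10 in stimulated explants, against 9.64 ± 0.28, 9.43 ± 0.45, 9.47 ± 0.14, 9.53 ± 0.33 and 9.42 ± 0.21 in unstimulated explants, with 9.57 ± 0.07 at day 0 (SD, n = 3 each). PSMB6, the caspase-like subunit, averaged 10.87 ± 0.29, 10.73 ± 0.17, 10.69 ± 0.06, 10.69 ± 0.09 and 10.85 ± 0.03 in stimulated explants, against 10.61 ± 0.42, 10.39 ± 0.18, 10.34 ± 0.35, 10.28 ± 0.32 and 10.23 ± 0.16 in unstimulated explants, with 10.38 ± 0.16 at day 0 (SD, n = 3 each). Its average difference was 0.39 ± 0.09 (SE, adjusted p = 0.000748). PSMB7, the trypsin-like subunit, averaged 10.55 ± 0.08, 10.50 ± 0.21, 10.50 ± 0.10, 10.43 ± 0.05 and 10.69 ± 0.14 in stimulated explants, against 10.36 ± 0.19, 10.28 ± 0.12, 10.34 ± 0.18, 10.40 ± 0.16 and 10.38 ± 0.10 in unstimulated explants, with 10.59 ± 0.06 at day 0 (SD, n = 3 each). Its difference, 0.18 ± 0.06 (SE, adjusted p = 0.0182), was small, and it did not pass with quantile normalization repeated (0.11) or without any 1 of the replicates.

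Each inducible subunit was set beside the constitutive one whose place it takes, as a description of their differences and without a test. The difference of PSMB9 exceeded that of PSMB6 by 0.67 log2 on average, in 13 of 15 pairs matched by day and replicate number. PSMB10 exceeded PSMB7 by 0.49, also in 13 of 15 pairs, and PSMB8 exceeded PSMB5 by 0.42 in 12 of 15. In all 3 couples the gap was widest at day 15, at 1.21 for PSMB9 over PSMB6, 0.87 for PSMB10 over PSMB7 and 0.73 for PSMB8 over PSMB5. At day 3 it was 0.17, -0.02 and 0.19 in the same order of couples. By day 27 the gap was 0.41, 0.50 and 0.16 in that order, above 0 in 2 of 3 pairs for each couple.

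In the rest of the core particle, 7 of 7 alpha-ring genes and 3 of 3 structural beta-ring genes were higher in stimulated explants. PSMA7, an alpha-ring subunit, ranged over 11.51 to 11.71 (median 11.62) in stimulated explants and over 10.92 to 11.39 (median 11.11) in unstimulated explants of days 3 to 27, with no overlap. Its difference was 0.50 ± 0.04 (SE, adjusted p = 7.32e-10), with replicate means of 0.43, 0.53 and 0.53. PSMB4, a structural beta subunit, ranged over 11.61 to 12.02 (median 11.76) in stimulated explants and over 10.83 to 11.37 (median 11.20) in unstimulated ones, a difference of 0.60 ± 0.06 (SE, adjusted p = 2.10e-09). PSMA3 of the alpha ring was likewise without overlap, at 10.81 to 11.25 (median 10.97) in stimulated and 10.03 to 10.65 (median 10.44) in unstimulated explants, a difference of 0.58 ± 0.06 (SE, adjusted p = 4.49e-08).

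PSMA1, another alpha-ring gene, had the highest core difference, 0.78 ± 0.13 (SE, adjusted p = 2.21e-05), and included 1 array far below the rest. Its levels at day 27 were 9.76, 9.59 and 9.76 in stimulated explants and 9.09, 8.71 and 7.05 in unstimulated explants. The value of 7.05 comes from replicate 3 of the unstimulated explants at day 27, an array already known to stand apart when the alternatives were listed, and without it the average difference was 0.66 (adjusted p = 6.89e-08). A second PSMA1 probe set was dim, at a mean level of 3.31, and gave -0.18 (adjusted p = 0.219). The lowest differences of the alpha ring that passed were PSMA2 at 0.21 ± 0.06 and PSMA4 at 0.34 ± 0.08 (SE, adjusted p = 0.00778 and 0.00182), and the lowest of the structural beta genes was PSMB3 at 0.26 ± 0.08 (SE, adjusted p = 0.0117).

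In the regulatory cap, 5 of 6 ATPases, 2 of 2 measured non-ATPase base genes and 6 of 8 lid genes were higher, and 1 lid gene was lower. PSMD14, the lid's deubiquitinase, measured 9.35, 8.96 and 9.23 in stimulated explants at day 3 and 9.32, 9.38 and 9.23 at day 15, against 8.84, 8.24 and 8.92 and then 8.58, 7.45 and 7.93 in unstimulated explants at these days. Its average difference of 0.88 ± 0.11 (SE, adjusted p = 1.66e-07) was the highest of the cap, and stimulated arrays lay above unstimulated ones at each of the 5 days. PSMD7, the lid subunit that pairs with PSMD14, ranged over 10.37 to 10.79 (median 10.67) in stimulated and 9.79 to 10.45 (median 10.03) in unstimulated explants of days 3 to 27, a difference of 0.61 ± 0.06 (SE, adjusted p = 7.92e-10). PSMD13, also in the lid, ran the other way at -0.20 ± 0.06 (SE, adjusted p = 0.0149), though not past the threshold once arrays were centred on their medians (-0.15). It also did not pass in limma without replicate 1 or without replicate 2 (adjusted p = 0.0735 and 0.204). PSMD6 of the lid was at 0.04 ± 0.05 (SE, adjusted p = 0.601).

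Of the base genes, the scaffold subunits PSMD2 and PSMD1 had differences of 0.52 ± 0.05 and 0.49 ± 0.06 (SE, adjusted p = 2.34e-09 and 5.19e-08). Among the ATPases, PSMC6 and PSMC3 led at 0.49 ± 0.08 and 0.41 ± 0.07 (SE, adjusted p = 4.13e-05 and 3.19e-05). PSMC5 was at 0.16 ± 0.05 (SE, adjusted p = 0.0156), and it did not pass with quantile normalization repeated (0.09). PSMC2 was at 0.04 ± 0.06 (SE, adjusted p = 0.695).

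All 15 stimulated arrays lay above all 15 unstimulated arrays of days 3 to 27 for 4 of the 45 genes, PSMA3, PSMA7, PSMB4 and PSMD1, against 1.55% of all probe sets. Stimulated arrays were above unstimulated arrays at each of the 5 days for 8 genes, these 4 with PSMD2, PSMD7, PSMD11 and PSMD14, against 2.53% of all probe sets. The shares beside these counts, and beside those of single days, F-tests and day 0 contrasts, are of all probe sets. None was taken among probe sets above the median signal, where 42 of the 45 genes lie.

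**Figure D3:**
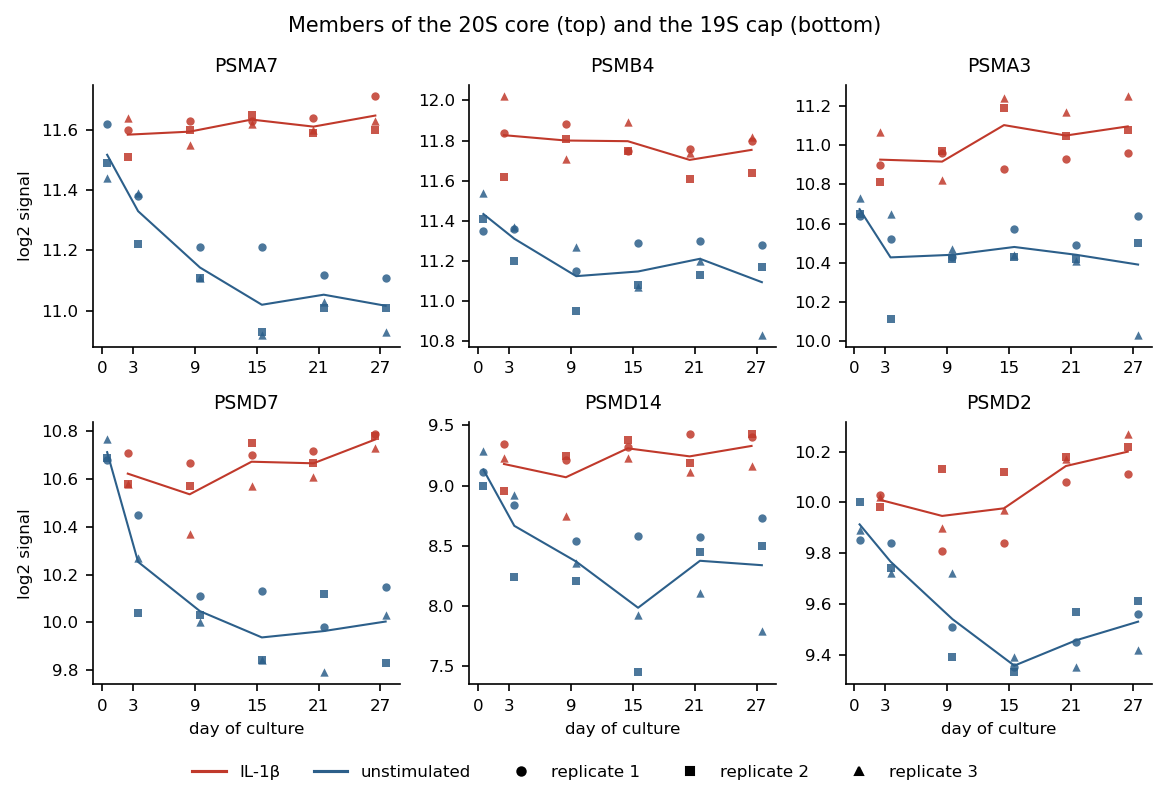
Levels (y axis, log2 signal) of 3 core genes (top) and 3 cap genes (bottom) against day of culture (x axis), with 1 point per array, marker shape for the replicate number and lines through the means of stimulated (red) and unstimulated (blue) explants. From day 0 to the mean of days 3 to 27, PSMA7, PSMD7 and PSMD14 change by 0.095, -0.058 and 0.095 in stimulated explants. In unstimulated explants they change by -0.404, -0.671 and -0.785. PSMA3, PSMB4 and PSMD2 change by 0.347, 0.344 and 0.141 in stimulated and by -0.237, -0.257 and -0.383 in unstimulated explants. The y axes do not start at 0 and differ between panels.

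The assembly chaperones, which help to build the core and the cap, had differences of both signs. Of the 4 chaperones of the core, PSMG3 was higher at 0.24 ± 0.08 and PSMG4 lower at -0.25 ± 0.08 (SE, adjusted p = 0.0155 and 0.0107). PSMG1 was at 0.04 ± 0.08 (SE, adjusted p = 0.721) and PSMG2, whose signal was dim, at -0.39 ± 0.20 (SE, adjusted p = 0.156). Of the 3 chaperones of the cap, PSMD5 and PSMD9 were lower, at -0.33 ± 0.10 and -0.21 ± 0.08 (SE, adjusted p = 0.0162 and 0.0413), and PSMD10 was at 0.02 ± 0.13 (SE, adjusted p = 0.929). With arrays centred on their medians, PSMG4 was the single gene of the 4 lower ones to pass. In the uncentred values without replicate 1, PSMG4 stood at -0.17 and did not pass (adjusted p = 0.264). PSMD5 without replicate 3 stood at -0.15 and did not pass, and PSMG3 did not pass without replicate 2 or without replicate 3 (adjusted p = 0.132 and 0.083). PSMD9 did not pass in limma without replicate 1 or without replicate 2 (adjusted p = 0.242 and 0.171). Nor did it without the unstimulated day 27 array of replicate 3 (adjusted p = 0.0572). The activator PSME4 and the inhibitor PSMF1 were at -0.15 ± 0.07 and -0.12 ± 0.06 (SE, adjusted p = 0.101 and 0.136), and did not pass. PSME4 passed as lower under the replicate block (adjusted p = 0.0428), and both did with quantile normalization repeated, PSME4 at -0.24 and PSMF1 at -0.19 (adjusted p = 0.0142 and 0.00767). PSMA8, known from testis, and PSMB11, known from thymus, had mean levels of 3.33 and 4.70, below the array's median probe set, and did not pass.

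Each day was also tested alone, with 3 arrays a group. At day 3, 1 of the 45 genes, PSMB4, was higher (0.52, adjusted p = 0.017) and none lower, against 1.77% of probe sets higher and 1.54% lower. Leaving out any 1 replicate ended that call, and at an unadjusted p under 0.05 there were 9 higher and 1 lower. No share of all probe sets is given at the unadjusted threshold, here or in the paragraphs below, so these counts lack a background. At day 9, 10 genes were higher and 0 lower (3.91% and 3.63% of probe sets), and at day 15, 14 were higher and 0 lower (6.79% and 5.88%). At day 21, 12 were higher and 1, PSMG4, was lower (6.11% and 6.02%), and at day 27, 19 were higher and 0 lower (8.25% and 6.54%). Among the inducible members, 0, 2, 3, 2 and 2 of 5 passed on the 5 days in order, PSMB9 and PSMB10 from day 9 on and PSME2 at day 15 (0.69, adjusted p = 0.0138). Of these calls, PSMB9 at day 15 was the single one that passed without any 1 of the replicates. Without the unstimulated day 27 array of replicate 3, the 19 higher genes of day 27 became 13, and PSMB10 and PSMB9 no longer passed (adjusted p = 0.0539 and 0.0928), nor did PSMB9 with quantile normalization repeated (adjusted p = 0.0716). With the replicate block, PSMA1, PSMB1 and PSMD14 were added at day 9 (13 higher), PSMG3 as higher and PSMD13 as lower at day 15 (15 and 1), and PSMA4, PSMB3 and PSMD8 at day 27 (22 higher). These counts rest on few arrays: without replicate 2, 0 genes were higher at day 9 and 4 each at days 15 and 21, and without replicate 3, 7 were higher at day 27. The share of all probe sets called in these smaller fits is not given.

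**Figure D4:**
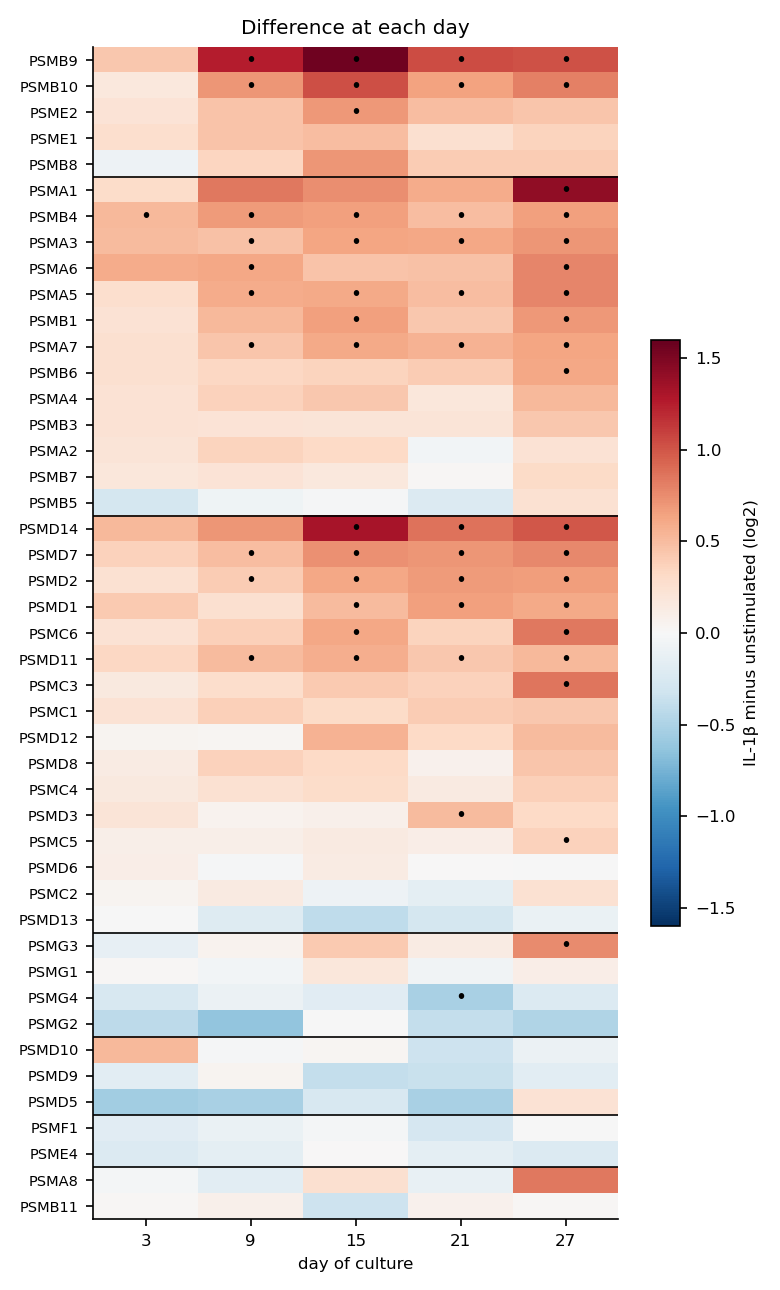
Stimulated minus unstimulated difference of each proteasome gene (rows, grouped by class in the order inducible, core, cap, core chaperones, cap chaperones, other regulators, tissue-restricted) at each day of culture (columns). Colour gives the log2 difference, red for higher in stimulated explants, and a dot marks an adjusted p under 0.05. PSMB9 has its highest value, 1.56, at day 15, and dots are most frequent at day 27, with 19.

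The change of the effect over time was tested itself. In the day 27 minus day 3 change of the difference, 0 of the 45 genes passed in limma, against 1.1% of probe sets. At an unadjusted p under 0.05 there were 10, all of them upward, and the 1.1% is not a share at that threshold. PSMG3 came closest, at 0.89 (adjusted p = 0.0736), and passed under the replicate block (adjusted p = 0.016). The moderated F-test over the 5 daily differences called 0 of 45 genes, against 0.409% of probe sets, with 3 at an unadjusted p under 0.05.

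Within stimulated explants alone, 0 of 45 genes passed for day 27 minus day 3, against 3.28% of probe sets. At an unadjusted p under 0.05 there were 9, all upward, and the 3.28% is not a share at that threshold. PSMB9 had a difference of 1.12 ± 0.32 (SE, adjusted p = 0.052), PSMB10 of 0.68 ± 0.20 (SE, adjusted p = 0.0606) and PSMB8 of 0.99 ± 0.34 (SE, adjusted p = 0.11). With the replicate block, PSMB9, PSMB8 and PSMG3 passed (adjusted p = 0.0146, 0.0269 and 0.047). The F-test over the 5 stimulated times called 0 of 45, against 0.903% of probe sets, with 6 at an unadjusted p under 0.05.

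In unstimulated explants 6 cap genes and 2 core genes varied over time, and none of the inducible members passed. The F-test over the 6 unstimulated times called 8 of 45 genes, against 4.66% of probe sets: PSMD7, PSMA7, PSMD2, PSMC2, PSMD3, PSMB1, PSMD11 and PSMD14. PSMD7 averaged 10.71 ± 0.05 at day 0, then 10.25 ± 0.20, 10.04 ± 0.06, 9.94 ± 0.16, 9.96 ± 0.16 and 10.00 ± 0.16 on the 5 later days (SD, n = 3 each, adjusted p = 0.000733 in limma's F-test). PSMA7 averaged 11.52 ± 0.09 at day 0, then 11.33 ± 0.10, 11.15 ± 0.05, 11.02 ± 0.16, 11.05 ± 0.06 and 11.02 ± 0.09 (SD, n = 3 each, adjusted p = 0.00522 in limma's F-test). Both had their highest mean at day 0. No single step passed: day 3 minus day 0 called 0 of 45 genes (0.401% of probe sets), with 10 at an unadjusted p under 0.05, all downward, and day 27 minus day 3 called 0 (1.01% of probe sets), with 8, all downward. Both percentages are of adjusted calls.

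Both arms were then set against day 0, in a pair of contrasts chosen after the data had been seen. They share the 3 day 0 arrays, so a deviation in these arrays moves both. Stimulated explants of days 3 to 27 minus day 0 had 8 genes higher and 3 lower (5.07% and 6.0% of probe sets). All 5 inducible members were among the 8, with PSMB9 at 1.52 ± 0.25, PSMB8 at 1.11 ± 0.26, PSME2 at 0.87 ± 0.14, PSME1 at 0.76 ± 0.15 and PSMB10 at 0.59 ± 0.16 (SE, adjusted p = 7.4e-05, 0.00422, 0.000102, 0.000673 and 0.0111). The others were the core genes PSMA3, PSMA5 and PSMB4, and the lower ones were PSMC2, PSMD5 and PSMF1. The 16 cap genes had a median of -0.04 in this contrast, with 0 higher.

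Unstimulated explants of days 3 to 27 minus day 0 had 0 genes higher and 14 lower (2.42% and 4.48% of probe sets). Of these, 11 were cap genes, led by PSMD14 at -0.79 ± 0.18 and PSMD7 at -0.67 ± 0.10 (SE, adjusted p = 0.00741 and 3.6e-05), and 3 were the core genes PSMB1, PSMA4 and PSMA7 at -0.68 ± 0.14, -0.65 ± 0.14 and -0.40 ± 0.08 (SE, adjusted p = 0.0021, 0.00437 and 0.00118). The cap genes had a median of -0.42. The 5 inducible members had a median of 0.41, and none passed, with PSMB8 at 0.75 ± 0.26 (SE, adjusted p = 0.0865, and 0.0178 under the replicate block), PSMB9 at 0.46 ± 0.25, PSME2 at 0.41 ± 0.14, PSME1 at 0.40 ± 0.15 and PSMB10 at -0.08 ± 0.16 (SE, adjusted p = 0.324, 0.0972, 0.119 and 0.839). With quantile normalization repeated, PSME1 and PSME2 passed as higher (adjusted p = 0.0446 and 0.0471). Without replicates 1, 2 and 3 in turn, the 14 lower genes became 8, 1 and 1, and the 8 higher genes of the stimulated arm became 5, 4 and 3.

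**Figure D5:**
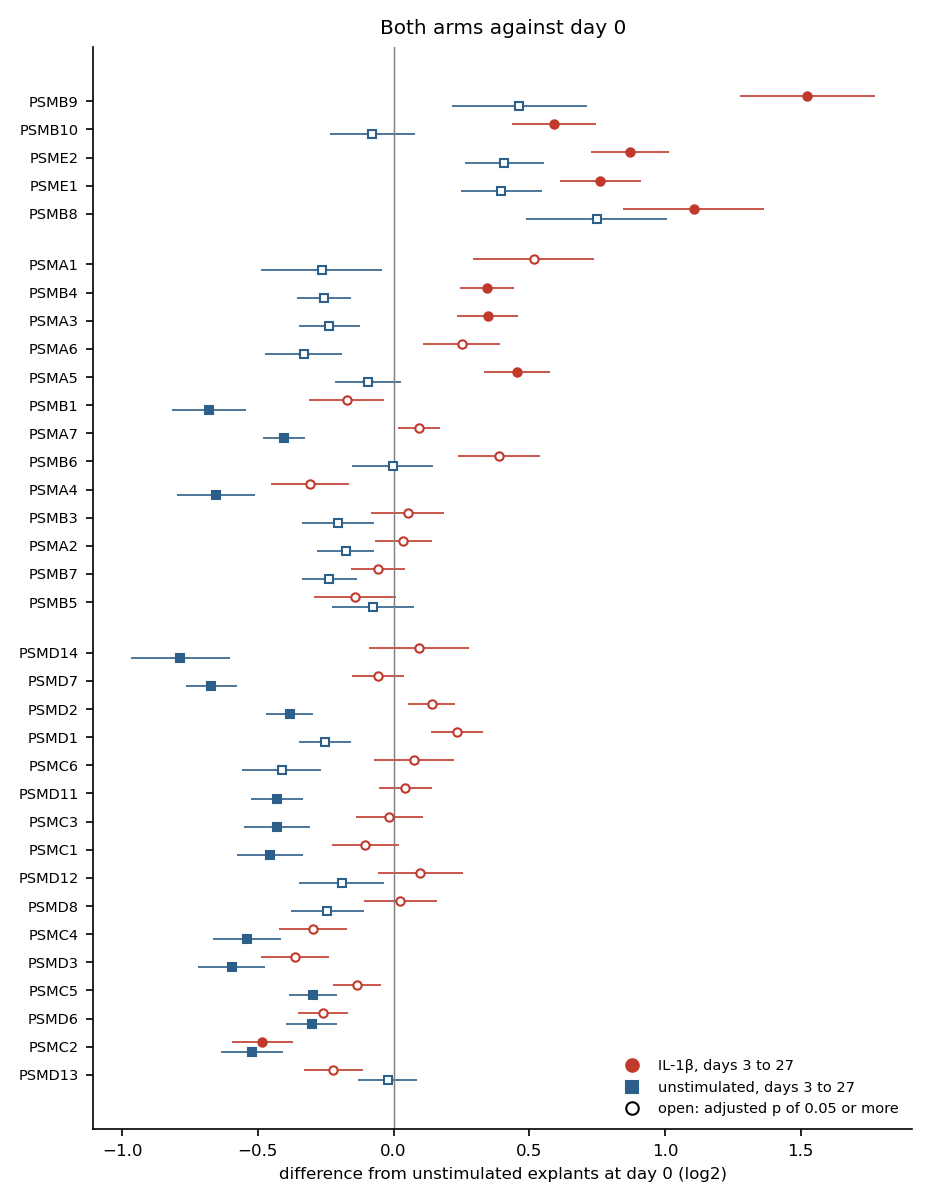
Difference of stimulated (red circles) and unstimulated (blue squares) explants of days 3 to 27 from unstimulated explants at day 0 (x axis, log2, ± SE) for the inducible, core and cap genes (rows, top to bottom). Filled markers have an adjusted p under 0.05, and both arms share the same 3 day 0 arrays. The inducible members have their stimulated markers between 0.59 and 1.52, whereas for PSMD14 and PSMD7 the stimulated markers lie at 0.10 and -0.06 and the unstimulated ones at -0.79 and -0.67.

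The differences were also read for each replicate number, as a description. The median difference of the inducible members over 5 days was 0.12 in replicate 1, 0.61 in replicate 2 and 0.69 in replicate 3, and replicate 1 had the lowest value for 5 of 5 genes. Core genes had medians of 0.32, 0.54 and 0.53, with replicate 1 lowest for 12 of 13, and cap genes 0.24, 0.41 and 0.33, with replicate 1 lowest for 14 of 16. Among all probe sets higher on average, replicate 1 was lowest for 45.4%, with medians of 0.44, 0.52 and 0.47. The SD of a gene's difference between the 3 numbers had a median of 0.30 among inducible members, 0.15 among core genes and 0.11 among cap genes. The SE of the averaged differences treats arrays of 1 number at different days as independent and does not measure this spread.

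Lists of related genes were examined beside the members in the average over days, where 15.6% of all probe sets were higher and 15.3% lower, or 29.9% and 22.9% among those above the median signal. Of 11 proteasome partners outside the PSM names, 10 were higher and 1, PAAF1, was lower, with a median of 0.37. They included POMP, the maturation factor of the core, at 0.53 ± 0.07, the proteasome-binding zinc finger gene ZFAND5 at 0.76 ± 0.07 and the cap-binding scaffold ECPAS at 0.37 ± 0.05 (SE, adjusted p = 6.32e-07, 6.57e-10 and 6.80e-07). Of 13 regulators of proteasome genes, 9 were higher and 0 lower. NFE2L1, the transcription factor that raises proteasome genes when proteasome activity is short, was at 1.00 ± 0.07, the cytokine signalling factor STAT3 at 0.61 ± 0.06 and NFE2L2, the oxidative stress factor, at 0.39 ± 0.05 (SE, adjusted p = 1.48e-11, 2.36e-08 and 5.39e-07).

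Of 16 ubiquitin, shuttle and p97 genes, 11 were higher and 2, RPS27A and UBQLN2, were lower. SQSTM1, an autophagy receptor for ubiquitinated cargo, was at 1.63 ± 0.07, RPS27A, which encodes ubiquitin fused to a ribosomal protein, at -0.54 ± 0.05 and the shuttle factor UBQLN1 at 0.55 ± 0.06 (SE, adjusted p = 1.26e-15, 2.10e-09 and 4.39e-08). Of 23 interferon and antigen presentation genes, 9 were higher, 2 lower and 12 did not pass, beside the 29.9% higher and 22.9% lower of bright probe sets. Their median was 0.08 and their lowest difference was -0.493. The transcription factor IRF1, at 1.84 ± 0.10, and the peptide transporters TAP1 and TAP2, at 1.47 ± 0.16 and 1.45 ± 0.13, were higher, as was the TAP-binding homologue TAPBPL at 0.95 ± 0.10 (SE, adjusted p = 2.38e-14, 3.67e-08, 3.94e-10 and 2.90e-08). The MHC class I activator NLRC5 was at -0.04 ± 0.07 (SE, adjusted p = 0.742), and the interferon-induced chemokines CXCL9 and CXCL10 had mean levels of 2.80 and 2.74 and did not pass.

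Markers of other cell types and of the chondrocyte, the cell of cartilage, were read on the same arrays. Of 18 leukocyte markers 2 were higher, FCER1G at 3.44 and CD68 at 0.58, and 2 were lower. The other 14 did not pass. The median difference of the 18 was -0.03 and the lowest was -0.275. Their summed linear signal, in which the brightest genes weigh most, ranged over 861 to 1330 in stimulated explants. In unstimulated explants of days 3 to 27 it ranged over 586 to 884. The defining leukocyte gene PTPRC had a mean level of 3.49 and was at -0.11 (adjusted p = 0.301), with CD3E at 3.50 and CD163 at 2.90. Of 12 chondrocyte markers 0 were higher and 7 lower, with sums of 3490 to 13000 in stimulated and 16800 to 22200 in unstimulated explants. Of 7 bone and osteoclast markers 2 were higher, CTSK (cathepsin K) at 1.48 and RUNX2 at 0.955, and 2 were lower, SP7 and IBSP. The median difference of these 7 markers was -0.06. Their sums ranged over 2710 to 9440 (median 7310) in stimulated and 1760 to 4250 (median 2320) in unstimulated explants, while the osteoclast markers ACP5 and CALCR had mean levels of 4.25 and 3.09 and did not pass. Of 9 synovial and fibroblast markers 3 were higher and 2 lower, with differences from -0.825 to 1.299. Their sums were 2170 to 13600 (median 11000) in stimulated and 12100 to 14100 (median 13200) in unstimulated explants. Of 7 endothelial and red cell markers 0 were higher and 3 lower, with sums of 124 to 235 in stimulated and 184 to 380 in unstimulated explants. These counts stand beside the same 15.6% higher and 15.3% lower over all probe sets. The part of these shifts in the proteasome differences was not tested.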

How the data were processed

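Cartilage explants were profiled on 33 arrays. The authors deposited log2 values for 25923 probe sets, and the submitters' processing notes name Affymetrix Expression Console, RMA and limma, with no version or role. The log base was inferred from the range, 1.50 to 13.9. The number of arrays limits the precision. Symbols are those of a platform annotation, some of them possibly outdated: 16789 probe sets had 1 symbol, 343 several and 8791 none, and all stayed in the tests.

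Differences were fitted with limma 3.58.1 under R 4.3.3 (lmFit, eBayes, 1 mean per group, 22 residual degrees of freedom), two-sided, with Benjamini-Hochberg adjustment over all probe sets and a threshold of 0.05. The fit was tested on simulated data with independent noise in each array, so that test does not cover correlation within a replicate number. With the first seed alone an estimate missed the tolerance set. The test was then judged over more seeds, where the mean estimates met it. Arrays of the same replicate number in different groups correlated with a median of 0.164 over 165 pairs, against -0.0841 over 330 pairs of other numbers, and each of the 33 arrays was closest to its own number. The numbers were therefore taken as pairing the arrays by inference, although the lowest correlation of 15 same-day pairs was 0.0781. The main fit left this pairing out, and the replicate block was fitted only as an alternative. The p-values of the main fit treat arrays of 1 number at different days as independent.

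Members and lists were chosen with earlier results of these data known. Genes named are the inducible and catalytic members, the 2 highest and 2 lowest differences of each other class, members past a threshold over time, and the leading genes of each list. PSMA5, PSMD3, PSMD11, PAAF1, UBQLN2, NLRC5, CXCL9, CXCL10 and the marker genes were named after their values were seen. No genome, promoter or protein sequences were used here, so a planned promoter motif count was not made.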

Additional observations from a re-analysis of the deposited data

How the results depend on the processing

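The fit was repeated with the replicate number as a fixed or random block, with only probe sets above the median signal, with quantile normalization repeated, with arrays centred on their medians, with eBayes trend and robust, without the unstimulated day 27 array of replicate 3, and without each replicate in turn. For the average over days, 25 to 31 genes were higher in the settings that keep all replicates, the lowest with quantile normalization repeated, and 20 to 29 without a replicate. The 4 lower genes became 6 with quantile normalization repeated, 5 with the replicate block, 3 without the day 27 array, 1 with median centring and 1 to 4 without a replicate. At day 3 the 1 higher gene became 3 with the replicate block, 4 with the random block or the bright probe sets, 2 with quantile normalization repeated, 3 with trend and robust or without the day 27 array, and 0 without any replicate. At day 15 the 0 lower genes became 1, PSMD13, with either block, the bright probe sets, quantile normalization repeated, or trend and robust. Without a replicate, higher genes numbered 0 to 5 at day 9, 4 to 13 at day 15, 4 to 7 at day 21 (with 0 lower) and 7 to 18 at day 27. At day 27 the 19 higher genes became 13 without the day 27 array and 25 with median centring. For the change from day 3 to day 27, the 0 higher genes became 1, PSMG3, with either replicate block or the bright probe sets. In unstimulated explants, day 27 minus day 3 had 1 lower gene, PSMA7, with trend and robust. In stimulated explants, day 27 minus day 3 had 3 higher genes with the replicate block, 2 with the random block, the bright probe sets or median centring, 1 with quantile normalization repeated or trend and robust, and 0 to 1 without a replicate.

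Against day 0, the stimulated arm had 5 lower genes with the bright probe sets or quantile normalization repeated and, without a replicate, 3 to 5 higher and 0 to 1 lower. Of its higher genes, PSMA3 and PSMB4 did not pass in limma with median centring (adjusted p = 0.0854 and 0.0555). PSMA1 was added as higher without the day 27 array. The unstimulated arm had 1 higher gene with either block or the bright probe sets, 2 with quantile normalization repeated, and 1 to 8 lower without a replicate. PSMC3 and PSMD6 were no longer called lower with quantile normalization repeated, nor was PSMD6 without the day 27 array. PSMC6 and PSMG3 were added as lower with the replicate block, and PSMG3 also with the random block, the bright probe sets or median centring. No proteasome gene called in the average over days had the opposite sign in any of these settings. Leaving out a replicate leaves 2 arrays a group, and the share of all probe sets called in those fits is not given. The cause of the other changes was not tested.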

Other observations

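Within the groups, the proteasome genes varied together to different degrees. Over deviations from the group means on the 33 arrays, the median Pearson correlation was 0.668 over 78 pairs of core genes and 0.535 over 10 pairs of inducible members. It was 0.498 over 208 pairs of a cap and a core gene, and 0.194 over 65 pairs of an inducible and a core gene. Pairs of cap genes had a median of 0.334 over 120 pairs, with single pairs from -0.309 to 0.88. Pairs of an inducible and a cap gene had a median of 0.171 over 80 pairs. These values are a description: the arrays share donors by inference, normalization and RNA input, and genes are not independent replicates. The deviations keep differences between replicate numbers, and pairs of other genes were not measured as a reference.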
